A study of Bos taurus with 8 samples.

Results

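Chromatin accessibility of bovine peripheral blood mononuclear cells (PBMCs) after 4 h of lipopolysaccharide (LPS) was compared with that after 2 h of LPS. All barcodes of the scATAC-seq (transposase cuts in open chromatin, counted in single nuclei) gene tables for 2 h and for 4 h of LPS were used, and the genes compared were the 13142 that both tables list, of 14165 listed in any of the 4 scATAC-seq tables. Both libraries came from 1 pool of whole blood of 4 female Holstein cattle aged 2 years, incubated at 37 °C with 2 µg/ml LPS before PBMCs were isolated. The pool was divided into 4 parts, of which 1 had no LPS and the others had LPS for the stated times or for 8 h, and each was measured by scRNA-seq and scATAC-seq. There was 1 library a side, so no difference below has a replicate check and no p-value is given. The 95% intervals cover counting error only.

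LPS, a component of the outer membrane of Gram-negative bacteria, is recognised by the receptor TLR4 with its partners LY96 and CD14, which blood monocytes carry in abundance. The receptor signals through NF-kB and AP-1 to cytokine and chemokine genes, and through TBK1 and IRF3 to type I interferon, which then acts on neighbouring cells through STAT2 and IRF9. Cytokine genes therefore belong to the early wave of the response and interferon-stimulated genes to a later one. Transposase cuts DNA where it is not covered by nucleosomes, so that the number of cuts assigned to a gene is a measure of how open its chromatin is. Many LPS-responsive genes of leukocytes are known to be open before stimulation.

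The 2 h library held 4172 barcodes with a median of 5171 counts, and the 4 h library 3231 barcodes with a median of 5205 counts. The shared genes received 30194188 and 26804899 counts, and values are given as CPM, which is counts scaled to the same total for these genes. The libraries without LPS and with 8 h LPS were shallower, with medians of 213 and 2250 counts, and are given below only beside values of the 2 h and 4 h libraries. A total of 20 barcode sequences occurred in both the 2 h and the 4 h library.

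Accessibility hardly moved between 2 h and 4 h for most genes. Of 12498 genes with at least 200 counts over both libraries, 10852 changed by less than 0.25 on the log2 scale, and the median log2 ratio of (CPM + 1), 4 h over 2 h, was -0.0019. By the size rule used here (log2 of 0.5 or more), 109 genes were higher at 4 h (0.872% of those tested) and 406 were lower (3.25%). The calls lay mostly among genes with few counts. With genes divided into 10 bins of equal size by their counts, 17.0% of the lowest bin were lower and 4.48% higher, whereas of the highest bin 0.40% were lower and 0.32% higher. The division between higher and lower depended on how barcodes were summed. With each barcode weighted equally 353 genes were higher and 545 lower, and with each gene scored as 0 or 1 per barcode 178 were higher and 221 lower.

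**Figure D1:**
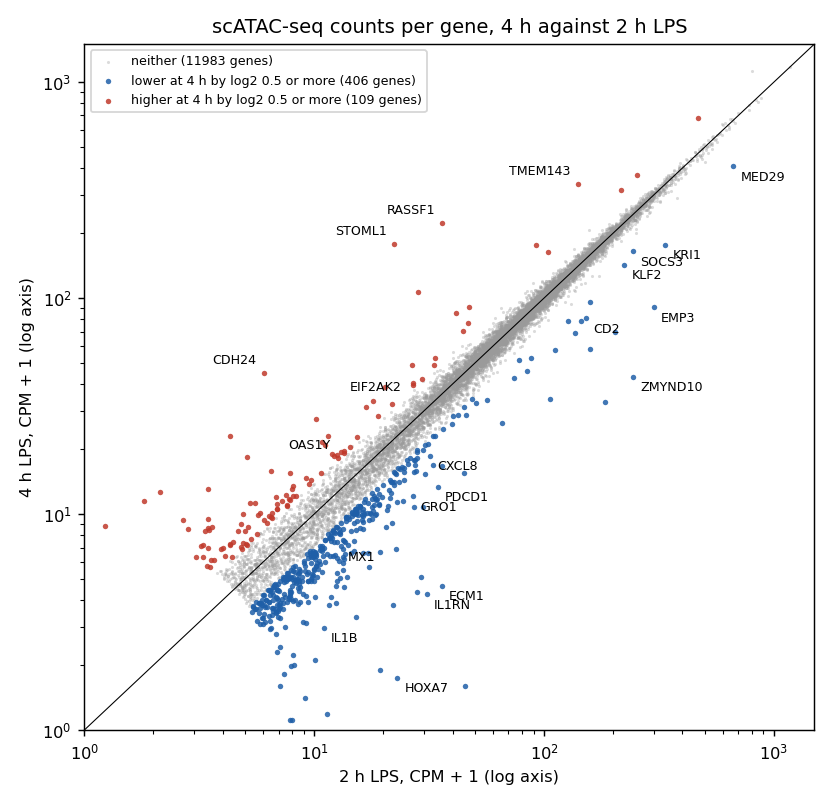
Accessibility of each of the 12498 tested genes at 2 h LPS (x axis) and 4 h LPS (y axis), in CPM + 1 on log axes, with the diagonal of equal values. Red points are the 109 genes higher at 4 h and blue points the 406 lower at 4 h by log2 0.5 or more. Most coloured points have low values, and a small group of well covered genes (RASSF1, STOML1, TMEM143, ZMYND10, EMP3, MED29) lies far from the diagonal.

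The genes of LPS recognition and of the first transcription factors stayed close to their 2 h accessibility, as did most genes tested. TLR4 had 57.5 CPM at 2 h and 62.0 CPM at 4 h (log2 0.11, interval -0.03 to 0.25), and LY96, which binds LPS on TLR4, had 39.2 and 37.4 CPM (log2 -0.07, interval -0.24 to 0.11). CD14, the co-receptor that hands LPS to TLR4, was lower, at 21.5 and 15.7 CPM (log2 -0.43, interval -0.71 to -0.20), which falls short of the size rule. Of 17 tested genes of the TLR4 pathway, from receptor to kinases, none passed the rule in either direction, with a median log2 of -0.07. Of all genes tested, 0.872% passed it upward and 3.25% downward. MYD88, the adaptor of the receptor, had 112 and 26 counts, too few to be tested.

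The 15 tested NF-kB genes, which are the subunits of the factor and its inhibitors, kept within -0.15 (BCL3) and 0.14 (TNIP3), with a median of -0.05. RNA of 2 inhibitor genes of the list was lower at 4 h over the same interval. NFKBIA, which holds NF-kB in the cytoplasm, had 269 and 267 CPM of accessibility beside 1752 and 1199 CPM of RNA. TNFAIP3, the deubiquitinase A20, had 193 and 190 CPM of accessibility beside 328 and 183 CPM of RNA. The 16 AP-1 and EGR genes, immediate early factors, had a median of 0.04. None of them passed the rule, beside 0.872% of all genes upward and 3.25% downward. The highest of them was EGR2, at 179 and 200 CPM (log2 0.16), and the lowest BATF3, a factor of dendritic and T cells, at 48.0 and 36.6 CPM (log2 -0.38).

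The inflammatory effectors, cytokines and chemokines made early by LPS-stimulated monocytes, were the list with the largest single falls. Of 28 tested members, 4 were lower by the rule and none was higher, beside 3.25% and 0.872% of all genes tested, and the list median was -0.07 (-0.13 to 0.01 under the other ways of summing and scaling). IL1RN encodes the antagonist of the interleukin-1 receptor, and it had 901 counts at 2 h and 87 at 4 h, which is 29.8 and 3.25 CPM (log2 -2.86). Its counts came from 5.37% of barcodes at 2 h and 1.36% at 4 h. IL1B, the main secreted interleukin-1, had 303 and 53 counts, or 10.0 and 1.98 CPM (log2 -1.89). Both genes lie in the interleukin-1 cluster, and IL1A of the same cluster had 8.98 and 8.02 CPM (log2 -0.15, interval -0.54 to 0.21).

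The neutrophil-attracting chemokines divided. GRO1, a bovine CXC chemokine, had 26.0 and 11.1 CPM (log2 -1.16, interval -1.52 to -0.96), and CXCL8, the interleukin-8 gene, had 30.97 and 17.61 CPM (log2 -0.78, interval -1.05 to -0.59). CXCL2, a close relative of GRO1 that stands beside it in the gene order, had 20.1 and 20.3 CPM (log2 0.02, interval -0.23 to 0.25). Genes of one chemokine family can share reads, and how the authors' counting treated such reads is not stated. CXCL8 missed the rule when barcodes were thinned to 2000 counts (log2 -0.49) and when genes were scored as 0 or 1 per barcode (log2 -0.24).

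Other cytokine genes stayed within the rule. TNF, the early monocyte cytokine, had 49.8 and 49.1 CPM (log2 -0.02, interval -0.17 to 0.13). IL6, which drives the acute phase response, had 10.5 and 7.50 CPM (log2 -0.44, interval -0.87 to -0.13). IL10, an anti-inflammatory cytokine, had 82.2 and 78.5 CPM (log2 -0.07, interval -0.19 to 0.05). The 2 highest members were CSF3, the granulocyte growth factor, at 4.21 and 5.82 CPM (log2 0.39, interval -0.04 to 0.96), and F3, tissue factor, at 13.5 and 17.6 CPM (log2 0.36, interval 0.11 to 0.66). Of the 44 genes on this list, 30 were listed in both tables, 3 in 1 of them and 11 in neither, among them CCL2, CCL20 and PTX3.

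Interferon-stimulated genes had slightly higher accessibility at 4 h as a group. Of 41 tested members, 33 had a higher value at 4 h and 8 a lower one, with a median log2 of 0.12 against -0.0019 for all genes tested. Their summed accessibility was 2689 CPM at 2 h and 2883 CPM at 4 h. Of all 12498 genes tested, 6174 had a higher value and 6324 a lower one. The counting interval lay above 0 for 17 members of the list and below 0 for 3, beside 1433 and 1790 of all genes. By the size rule, however, only OAS1Y was higher and only MX1 lower, beside 0.872% and 3.25% of all genes tested. At the smaller size of log2 0.25 there were 7 higher and 3 lower, beside 4.06% and 9.11% of all genes tested.

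OAS1Y, one of the bovine oligoadenylate synthetases that sense double-stranded RNA, had 352 counts at 2 h and 461 at 4 h (11.7 and 17.2 CPM, log2 0.52, interval 0.27 to 0.85). It dropped below the rule with equal barcode weights (log2 0.28) and without the unnamed clusters described below (log2 0.49). IFI44, an interferon-induced cytoplasmic protein, had 12.6 and 18.2 CPM (log2 0.50, interval 0.25 to 0.81), just under the rule. EIF2AK2, the kinase PKR that stops translation in infected cells, had 24.9 and 32.8 CPM (log2 0.38, interval 0.19 to 0.60). The RNA helicase gene DHX58 had 39.8 and 49.4 CPM (log2 0.31), and IFI44L, beside IFI44 in the genome, had 453 and 505 counts (log2 0.31). Close relatives such as OAS1X (29.2 and 35.4 CPM, log2 0.27) and OAS1Z (56.6 and 57.8 CPM, log2 0.03) can share reads with OAS1Y, and their separate values are uncertain for that reason.

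The neighbouring antiviral GTPase genes MX1 and MX2 went opposite ways. MX2 had 123 and 146 CPM (log2 0.24, interval 0.15 to 0.34), with counts in 27.8% of barcodes at 2 h and 31.2% at 4 h. MX1 had 364 and 163 counts, or 12.1 and 6.08 CPM (log2 -0.88, interval -1.37 to -0.60). MX2 held 3727 counts at 2 h, far more than MX1. The factors that carry the interferon signal changed little. STAT2 had 20.9 and 21.9 CPM (log2 0.07), and IRF9 135 and 143 CPM (log2 0.08). None of 21 tested IRF and STAT genes passed the rule (0.872% of all genes upward and 3.25% downward), and their median was -0.06. ISG15, a ubiquitin-like interferon product, was listed at 2 h only, with 1380 counts, and is treated with the neighbouring genes below. CXCL10, IFIT1, IFIT2 and IFIT3 were listed in neither table.

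**Figure D2:**
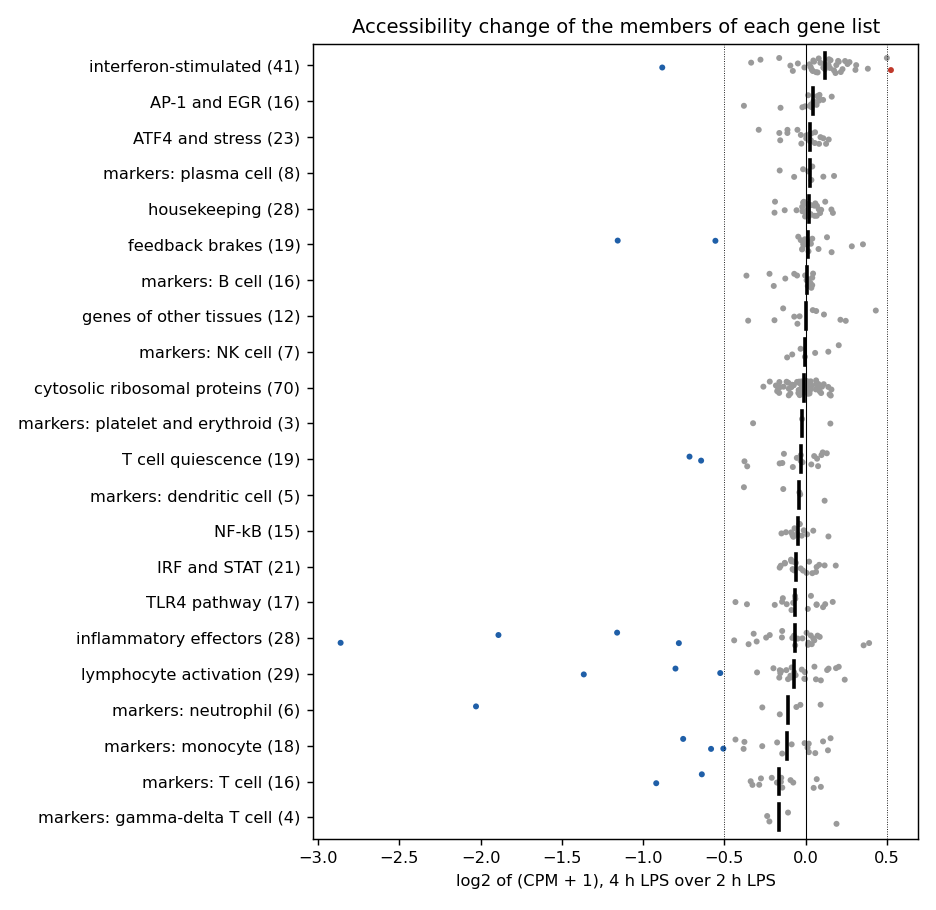
Log2 ratio of (CPM + 1), 4 h LPS over 2 h LPS, for each tested member of the 22 gene lists, with the number of tested members in parentheses. Each point is a gene, the thick bar is the list median, and dotted lines mark log2 0.5 in either direction. The interferon-stimulated median lies at 0.12 and the marker medians of T cells and gamma-delta T cells lie lowest, at -0.17.

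RNA of these lists moved more than their accessibility, with a median log2 of 1.41 for the interferon-stimulated and -0.85 for the inflammatory genes. Over 8319 genes tested in both assays (200 or more counts and 200 or more UMIs), the Spearman correlation of the log2 ratios was 0.06, as a description across genes of 1 library a side in each assay. Between 2 h and 4 h, 43 genes rose at least 2-fold in RNA, and 37 of them had a positive log2 ratio of accessibility, with a median of 0.14. Among all 8319 genes the share with a positive ratio was 52.4%. The count of 37 lay between 32 and 39 under the other ways of summing and scaling. Of 38 genes that fell at least 2-fold in RNA, 21 had a lower accessibility, with a median log2 of -0.06, beside 47.6% of all genes. By the size rule 3 of the 38 were lower in accessibility and 3 higher, beside 3.25% and 0.872% of all 12498 genes.

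The RNA rises were led by interferon-stimulated genes. MX2 went from 38.5 to 294 CPM of RNA (log2 2.90) while its accessibility differed by 0.24. The sensor gene DDX58, which encodes RIG-I, went from 16.6 to 90.0 CPM of RNA (log2 2.37) with 34.2 and 35.5 CPM of accessibility (log2 0.05). MX1 went from 127 to 454 CPM of RNA (log2 1.84) although its accessibility value was lower at 4 h. Of the 43 genes with an RNA rise of at least 2-fold, 2 passed the accessibility rule upward and 1 downward. Of all 12498 genes, 0.872% passed it upward and 3.25% downward. The 2 were OAS1Y and the endosomal RNA receptor gene TLR7. TLR7 had 7.35 and 11.1 CPM of accessibility (log2 0.53, interval 0.22 to 0.96), and is named after its value was seen. It was not listed without LPS or at 8 h.

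Inflammatory RNA fell while accessibility mostly stayed. IL6 went from 650 to 125 CPM of RNA (log2 -2.37), and CSF3 from 665 to 221 CPM (log2 -1.59) while its accessibility was not lower. IL1B went from 3531 to 1788 CPM of RNA (log2 -0.98) beside its accessibility fall of log2 -1.89. IL1RN, which had the largest accessibility fall of the list, had 1181 and 1080 CPM of RNA (log2 -0.13).

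**Figure D3:**
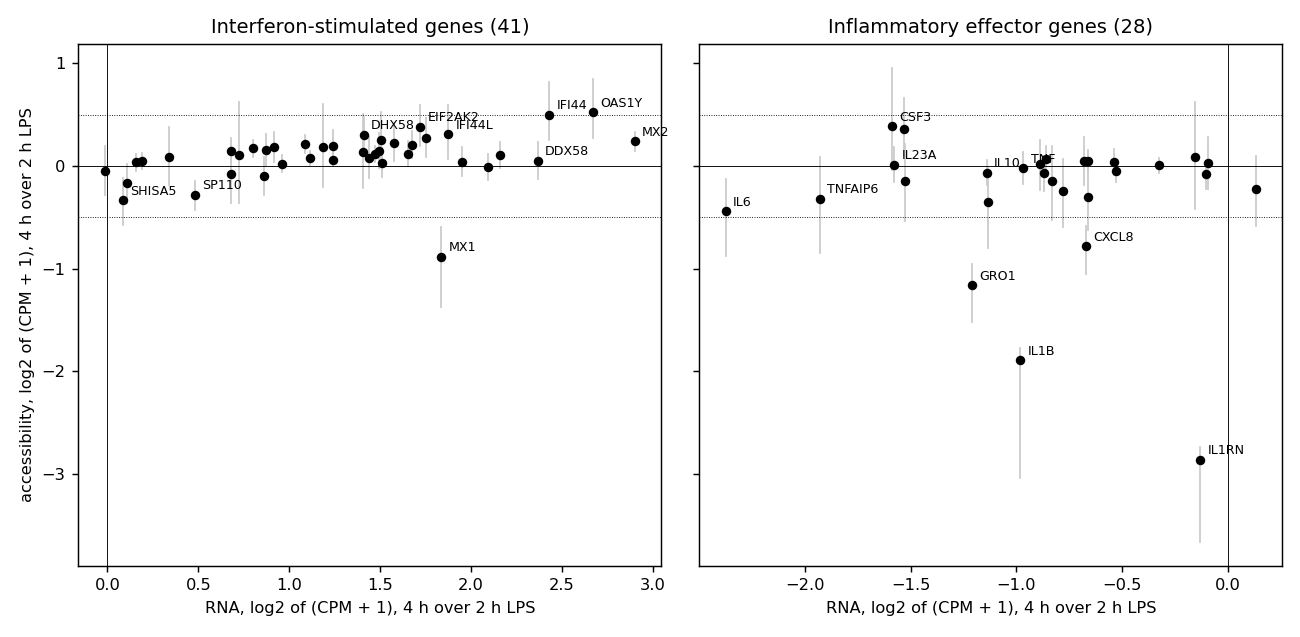
Log2 ratio of RNA (x axis) and of accessibility (y axis), 4 h over 2 h LPS, for 41 interferon-stimulated genes and 28 inflammatory effector genes. Vertical bars are 95% counting intervals of the accessibility ratio without a pseudocount, and dotted lines mark log2 0.5 in either direction. RNA of the interferon-stimulated genes reaches 2.90 (MX2) while all their accessibility ratios but that of MX1 lie between -0.34 and 0.52, and IL1RN, IL1B, GRO1 and CXCL8 stand below the other inflammatory genes.

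Among the feedback brakes, which limit cytokine and MAP kinase signals, 2 of 19 tested genes were lower by the rule and none higher, beside 3.25% and 0.872% of all genes. SOCS3, the inhibitor of the interleukin-6 receptor signal, had 7293 counts at 2 h and 4396 at 4 h, or 242 and 164 CPM (log2 -0.56, interval -0.64 to -0.48). Its counts came from 45.3% and 36.1% of barcodes. DUSP16, a phosphatase of JNK and p38, had 7.72 and 2.91 CPM (log2 -1.16). The highest members were SOCS2, at 25.8 and 33.2 CPM (log2 0.35), and DUSP6, a phosphatase of ERK, at 82.5 and 101 CPM (log2 0.28). SOCS3 fell short of the rule in 3 alternatives, the lowest size being log2 -0.37 with genes scored as 0 or 1 per barcode.

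Of 29 tested genes of lymphocyte activation, the intervals of 9 lay below 0 and of 3 above, beside 1790 and 1433 of all 12498 genes. By the rule 3 were lower and none higher, beside 3.25% and 0.872% of all genes. The 3 were PDCD1, the inhibitory receptor PD-1, at 33.5 and 12.4 CPM (log2 -1.37, interval -1.70 to -1.18), TNFRSF18, the costimulatory receptor GITR, at 26.2 and 14.6 CPM (log2 -0.80), and TNFSF4, the ligand of OX40, at 5.60 and 3.58 CPM (log2 -0.53). With genes scored as 0 or 1 per barcode TNFRSF18 (log2 -0.47) and TNFSF4 (log2 -0.29) missed the rule. RNA was level, at 18.6 and 19.8 CPM for PDCD1. The highest member was IL2RB, a chain of the interleukin-2 receptor, at 67.6 and 79.9 CPM (log2 0.24).

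Of 19 tested genes of T cell quiescence, 2 were lower and none higher, beside 3.25% and 0.872% of all genes. KLF2, a factor that keeps T cells resting and circulating, had 222 and 142 CPM (log2 -0.64, interval -0.73 to -0.57), and TSC1, an inhibitor of mTOR, had 15.4 and 8.99 CPM (log2 -0.72). With genes scored as 0 or 1 per barcode both missed the rule (log2 -0.41 and -0.48), and KLF2 also with at most 4 counts per gene and barcode (log2 -0.49) and without the unnamed clusters (log2 -0.50). The related factor KLF3 had 135 and 142 CPM (log2 0.08), and S1PR1, the receptor for leaving lymph nodes, 108 and 116 CPM (log2 0.10).

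Markers of T cells moved with these genes. Of 16 tested T cell markers 13 had a lower value at 4 h, beside 6324 of all 12498 genes. The intervals of 11 markers lay below 0, beside 1790 of all genes. The summed accessibility of the T cell markers was 1754 CPM at 2 h and 1488 CPM at 4 h. By the rule 2 of the 16 were lower and none higher, beside 3.25% and 0.872% of all genes. These were CD2, an adhesion receptor of T and NK cells, at 151 and 79.5 CPM (log2 -0.92, interval -1.03 to -0.82), and the coreceptor chain CD8B, at 5.96 and 3.47 CPM (log2 -0.64). The CD8B value turned with thinned barcodes (log2 0.24) and missed the rule with equal weights (log2 -0.37) and without the deepest 5% of barcodes (log2 -0.48). BCL11B, a factor of T cell identity, had 250 and 199 CPM (log2 -0.33). The defining markers CD3D, CD3E and CD3G were listed in neither table. In summed libraries, fewer nuclei of a type and less accessibility per nucleus cannot be told apart. Values of CD2 and PDCD1 within classes of nuclei are given below.

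The markers of other blood cells differed in direction and size. The 4 gamma-delta T cell markers had a median of -0.17, with none past the rule. The 16 B cell markers had a median of 0.01, with PAX5, the factor of B cell identity, at 242 and 245 CPM, and the 7 tested NK cell markers a median of -0.01. Of 18 monocyte markers 3 were lower by the rule and none higher (3.25% and 0.872% of all genes), with a median of -0.12 (-0.15 to 0.02 under alternatives) and a summed level of 909 and 902 CPM. These were MS4A7, C5AR1 and CLEC7A, and with genes scored as 0 or 1 per barcode all 3 fell short of it (log2 -0.45, -0.22 and -0.48). CLEC7A, a fungal receptor with 200 and 117 counts, went the other way with equal barcode weights (log2 0.32). The part of monocyte content in the falls of IL1RN, IL1B, GRO1 and CXCL8 was not tested. The 6 neutrophil markers had a median of -0.11, with 5 lower in value. By the rule 1 of the 6 was lower and none higher, beside 3.25% and 0.872% of all genes. This was ALPL, an alkaline phosphatase, with 217 and 27 counts (log2 -2.03). Genes of general function were level, with medians of 0.02 for 28 housekeeping genes, -0.01 for 70 cytosolic ribosomal protein genes, 0.02 for 23 genes of the ATF4 and stress response and 0.00 for 12 genes of other tissues. Dendritic cell (5 genes), plasma cell (8 genes) and platelet and erythroid markers (3 genes) had medians of -0.04, 0.02 and -0.02, with none past the rule.

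Among the 10 largest rises and the 10 largest falls of genes with a symbol, IL1RN was the 1 member of a list. The falls were HOXA7, C3H1orf216, PIANP, ECM1, IL1RN, ATP4B, SPATS2, CLIP2, SP7 and ATP6AP1. HOXA7, a homeobox factor of body patterning, had 665 and 20 counts, with a log2 ratio without pseudocount of -4.88 (interval -5.95 to -3.98). SP7, the bone factor osterix, had 815 and 90 counts. ATP4B, a subunit of the stomach proton pump, and SPATS2 had 3 counts each at 4 h, after 212 and 207 at 2 h, giving log2 ratios without pseudocount of -5.97 (interval -8.62 to -3.67) and -5.94 (interval -8.59 to -3.64). ECM1, an extracellular matrix protein that T helper cells also make, had 34.9 and 3.66 CPM of accessibility beside 26.2 and 19.4 CPM of RNA.

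The rises were STOML1, CDH24, RASSF1, MMP16, BRD1, IFFO1, CCR10, PIK3C2G, PCDH7 and ADGRB3. STOML1, a stomatin-like membrane protein, had 642 and 4718 counts, or 21.3 and 176 CPM (log2 2.99), beside 44.4 CPM without LPS and 17.7 CPM at 8 h, so the 4 h library alone was high. BRD1, a subunit of a histone acetyltransferase complex, had 100 and 590 counts and was listed in neither of the other libraries. CDH24, a cadherin, had 152 and 1179 counts. CCR10, a chemokine receptor of plasma cells and skin T cells, had 4.11 and 17.3 CPM. MMP16, PIK3C2G, PCDH7 and ADGRB3, a protease, a lipid kinase, a protocadherin and an adhesion receptor of neurons, had no RNA UMI at 2 h or 4 h. In MMP16 the 2 h library stood lowest, with 1.13 CPM at 2 h, 11.7 CPM at 4 h, 32.02 CPM without LPS and 61.9 CPM at 8 h.

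As a class, called genes differed from the others in depth, in RNA and in listing. Their median counts over both libraries were 470 for those higher and 461.5 for those lower, beside 3531 for genes past neither side. The shares below were not matched for depth, so they cannot be told apart from this difference. RNA was under 1 CPM at both times for 69.3% of the genes higher at 4 h and 58.8% of those lower, beside 24.6% of the genes past neither side of the rule. Of the 406 genes lower at 4 h, 256 (63.1%) were not listed in the 8 h table, beside 7.42% of the genes past neither side and 20.2% of those higher. Among genes listed in all 4 tables, 79 were higher and 110 lower. For 88.2% of these 110 the 4 h value was nearer to the 8 h value than the 2 h value was, and for 74.7% of the 79, beside 63.0% of the genes past neither side. Set against the library without LPS, the 4 h value was the nearer one for 63.6% of the 110 and 87.3% of the 79, beside 61.2%.

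A run of large changes joined genes that lie next to each other. With genes ordered by the RefSeq annotation of ARS-UCD2.0, used only for which genes are neighbours, 35 genes with 2500 or more counts were called, 13 higher and 22 lower of 7505. Of the 11 higher genes that could be placed, 6 (54.5%) had a neighbour that was lower or was listed at 2 h only, beside 5.71% of the 7023 placed genes of that depth past neither side. Of the 21 lower genes that could be placed, 9 (42.9%) had a neighbour that was higher or was listed at 4 h only, beside 1.40%. Over called genes of all depths the shares were lower, at 9 of 84 placed rises (10.7%, beside 5.72%) and 13 of 347 placed falls (3.75%, beside 146 of 10815 genes past neither side). At all depths there were 20 such pairs, and in 19 of them the summed accessibility of the pair differed by less than log2 0.5, with a median of 0.01. The pairs were picked for opposite changes, so their sums tend to cancel, and an unlisted gene entered the sum as 0. Of the 12498 single genes tested, 11983 were past neither side of the rule.

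RASSF1, a tumour suppressor of the Ras pathway, and ZMYND10, a protein of motile cilia, were such a pair. RASSF1 had 1061 and 5923 counts (35.1 and 221 CPM, log2 2.62), and ZMYND10 had 7338 and 1134 counts (243 and 42.3 CPM, log2 -2.49). The pair together had 278 CPM at 2 h and 263 CPM at 4 h. TMEM143, a mitochondrial membrane protein, had 139 and 338 CPM, and EMP3, a membrane glycoprotein of leukocytes, 298 and 89.7 CPM, with 437 and 427 CPM together. The log2 ratio of RNA was -0.03 for RASSF1 and 0.13 for TMEM143, the latter with 99 and 101 UMIs. ZMYND10 had 2 and 1 UMIs (under 1 CPM, log2 -0.02), too few to show a change. EMP3 had lower RNA at 4 h, at 206 and 133 CPM (log2 -0.63). CDH24, among the largest rises, lies beside ACIN1, a protein of RNA splicing, which had 83.0 and 44.9 CPM, and this pair had 88.0 and 88.9 CPM together.

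In 4 of the 6 pairs plotted, those of RASSF1, TMEM143, MED29 and KRI1, the 2 h library stood apart from the other 3. RASSF1 had 279 CPM without LPS and 237 CPM at 8 h, near its 4 h value. EMP3 had 82.6 CPM without LPS and 81.8 CPM at 8 h, beside 298 CPM at 2 h. KRI1, a ribosome biogenesis factor, had 203, 335, 175 and 210 CPM in the order no LPS, 2 h, 4 h and 8 h, and its neighbour CDKN2D, an inhibitor of the cell cycle, was not listed at 2 h but had 155, 146 and 174 CPM in the other libraries.

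The same pattern touched genes of the LPS response. ZFP36, which encodes tristetraprolin and degrades TNF mRNA, was not listed at 2 h and had 7133 counts at 4 h (266 CPM). Its neighbour MED29, a subunit of the Mediator complex, had 665 CPM at 2 h and 405 CPM at 4 h (log2 -0.71), and with ZFP36 the level at 4 h was 672 CPM. ISG15 was listed at 2 h (1380 counts, 45.7 CPM) but not at 4 h, while its neighbour AGRN, a matrix proteoglycan, had 103 and 162 CPM (log2 0.65), with 149 and 162 CPM together. Genes missing from a table were for this reason not counted as closed.

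In other pairs the sum was alike at 2 h and 4 h but higher in the other libraries, as for ZFP36 and MED29 (885 CPM without LPS and 782 CPM at 8 h). PHF1, a Polycomb-associated protein, was listed at 2 h only of these 2 libraries (154 CPM), and its neighbour CUTA at 4 h only (156 CPM). Both were listed without LPS, at 208 and 131 CPM, and at 8 h, at 200 and 183 CPM, which gives sums of 339 and 383 CPM.

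**Figure D4:**
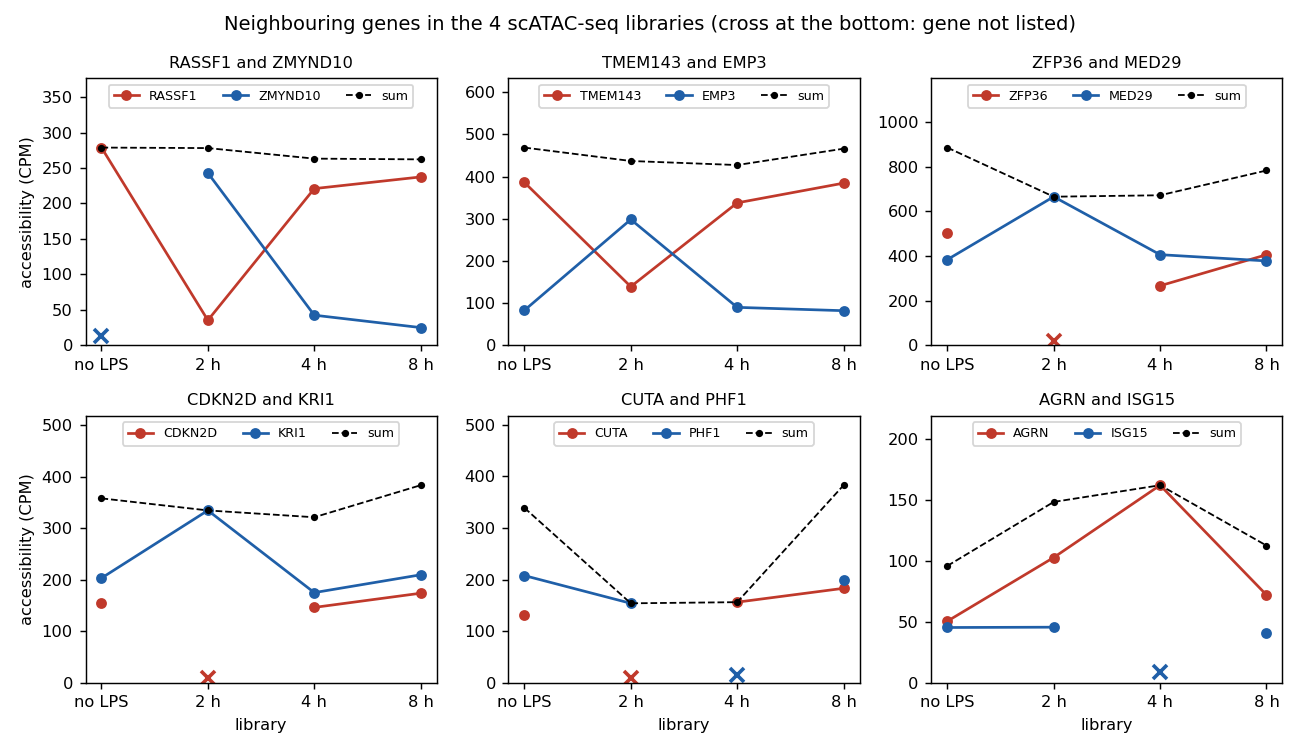
Accessibility (CPM) of 6 pairs of neighbouring genes in the 4 libraries (x axis, by time with LPS), with 1 library per point. Red is the gene higher at 4 h, blue the gene lower at 4 h, the dashed black line their sum, and a cross at the bottom a gene that the table does not list. In RASSF1 and ZMYND10 the sum stays between 262 and 279 CPM in all 4 libraries while the genes exchange places at 2 h.

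Barcodes were then grouped to see whether the changes were shared by cell classes. Clustering of the 7403 barcodes without the genes of the LPS lists gave 12 clusters, named from marker genes. Barcodes in named clusters were fewer at 4 h: T cell-like clusters held 25.6% of barcodes at 2 h and 16.2% at 4 h, B cell-like clusters 26.4% and 20.2%, gamma-delta T cell-like 7.33% and 4.61%, monocyte-like 3.62% and 2.17% and NK cell-like 1.61% and 1.18%. Unnamed clusters held 35.5% and 55.6%. The largest of them had a median of 2374 counts per barcode at 2 h and 1966 at 4 h, below the library medians, and another had 23463 and 26189 and held 19.7% and 34.3% of all counts.

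With thinning and new clusters, 2 of these shares changed direction. With each barcode thinned to 2000 counts, leaving out 635 barcodes at 2 h and 752 at 4 h that had fewer on the shared genes, all remaining barcodes fell in named clusters. T cell-like barcodes were then 59.2% at 2 h (exact binomial interval 57.6 to 60.8) and 61.3% at 4 h (59.3 to 63.2), B cell-like 32.3% and 29.8%, monocyte-like 7.18% and 8.07% and NK cell-like 1.36% and 0.847%. The thinned classes were used for the values within classes, with all counts of their barcodes. The T cell-like class joined a cluster with 9 raised T cell markers, among them BCL11B, CD28, CD5 and LCK, and one with 5 raised and 4 lowered, in which the gamma-delta markers had a median fold of 3.59. The B cell-like class joined clusters with 10 and 8 of 16 markers raised, among them PAX5 and EBF1. The monocyte-like class joined clusters with 6 and 11 of 19 markers raised, among them SPI1 and TLR4. In these 2 clusters the monocyte markers had median folds of 2.90 and 4.89, and the 7 neutrophil markers 3.83 and 2.87. The monocyte-like class may therefore hold neutrophil-like nuclei as well.

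Within T cell-like nuclei the interferon-stimulated list was higher, as in the sums. Of 40 members with at least 200 counts, 34 had a higher value at 4 h, beside 50.3% of all genes of the class. The list median was 0.14 against 0.00 for all genes of the class. Within B cell-like nuclei 19 of 30 were higher (50.9% of all genes), with a median of 0.07. Within monocyte-like nuclei 7 of 14 were higher (52.1% of all genes), with a median of -0.00. Whether the classes differ was not tested. In the clusters without thinning the medians were 0.15 for T cell-like, 0.04 for B cell-like, 0.02 for gamma-delta T cell-like, 0.01 for monocyte-like (5 genes) and 0.11 for unnamed nuclei.

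Among single genes, MX2 in T cell-like nuclei had 1774 counts at 2 h and 2216 at 4 h (log2 0.42, interval 0.30 to 0.56), and in B cell-like nuclei 1629 and 1392 (log2 0.08, interval -0.07 to 0.23). In the clusters without thinning it had 615 and 414 counts in T cell-like nuclei (log2 0.22, interval -0.04 to 0.48) and 1296 and 2145 in unnamed nuclei (log2 0.29, interval 0.15 to 0.44). In the thinned clustering EIF2AK2 had log2 ratios of 0.32 in T cell-like and 0.52 in B cell-like nuclei. MX1 had most of its counts in B cell-like nuclei, where it went from 230 to 78 counts (log2 -1.19). EPSTI1, an interferon-induced gene named after its value was seen, was lower in both classes (log2 -0.26 and -0.49) while its RNA rose from 187 to 468 CPM.

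The class that held the falls of inflammatory genes depended on the clustering. In monocyte-like nuclei of the thinned clustering IL1RN had 398 counts at 2 h and 23 at 4 h (log2 -3.71, interval -4.69 to -2.88), and in T cell-like nuclei 388 and 53 (log2 -2.40). GRO1 fell by 1.00 in monocyte-like and by 1.04 in T cell-like nuclei on the log2 scale. CXCL8 had 402 and 242 counts in monocyte-like nuclei (log2 -0.39, interval -0.73 to -0.06) and 400 and 173 in T cell-like nuclei (log2 -1.03). Without thinning most of these counts lay in unnamed nuclei, where IL1RN had 684 and 70 counts (log2 -3.47, interval -4.27 to -3.22), CXCL8 628 and 389 (log2 -1.10) and GRO1 453 and 194 (log2 -1.59). The T cell-like nuclei then held 78 and 8 counts of IL1RN. One of the unnamed clusters had 11 raised monocyte and 4 raised neutrophil markers, and CXCL8, IL1RN and GRO1 were among its leading genes. This cluster held 3.50% of barcodes at 2 h and 2.57% at 4 h, which the monocyte-like share without thinning leaves out. In the clusters formed without thinning GRO1 was level in monocyte-like nuclei, at 172 and 74 counts (log2 0.04, interval -0.55 to 0.62), and IL1RN, with 73 and 5 counts, was under the minimum. With thinning TNF had 1017 and 827 counts in T cell-like nuclei (log2 -0.19, interval -0.38 to 0.00) and 372 and 367 in B cell-like nuclei (log2 0.28, interval -0.01 to 0.59).

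SOCS3 and KLF2 had lower values in each of the 3 classes. SOCS3 differed by -0.64 in T cell-like, -0.39 in B cell-like and -0.20 in monocyte-like nuclei, the last with an interval of -0.49 to 0.09, and in monocyte-like nuclei of the clusters without thinning by -0.01. KLF2 differed by -0.76, -0.36 and -1.13. CD2 was lower by log2 -0.90 in T cell-like nuclei (interval -1.02 to -0.79). In B cell-like nuclei it had 377 and 101 counts (log2 -1.54, interval -2.09 to -1.15), and in monocyte-like nuclei it was under the minimum. PDCD1 was lower by log2 -1.32 in T cell-like nuclei (interval -1.67 to -1.10) and under the minimum in the other classes. The NF-kB list had a median of -0.28 over 13 genes in monocyte-like nuclei, beside 0.01 in T cell-like and -0.03 in B cell-like nuclei, and without thinning the monocyte-like median was -0.16 over 11 genes. For inflammatory effectors the monocyte-like median turned with the clustering, from -0.18 over 12 genes with thinning to 0.14 over 7 genes without.

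The exchanges between neighbours also ran through the classes. RASSF1 was higher by 2.83 in T cell-like, 3.11 in B cell-like and 1.16 in monocyte-like nuclei, and ZMYND10 lower by log2 -2.33, -3.07 and -2.34. TMEM143 was higher by 1.31, 1.22 and 1.08 in the same order. In monocyte-like nuclei of the clusters without thinning TMEM143 differed by 0.26 (interval -0.38 to 0.88). STOML1, whose neighbours were past neither side of the rule, was higher by 3.48, 2.13 and 3.46 in the thinned classes.

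**Figure D5:**
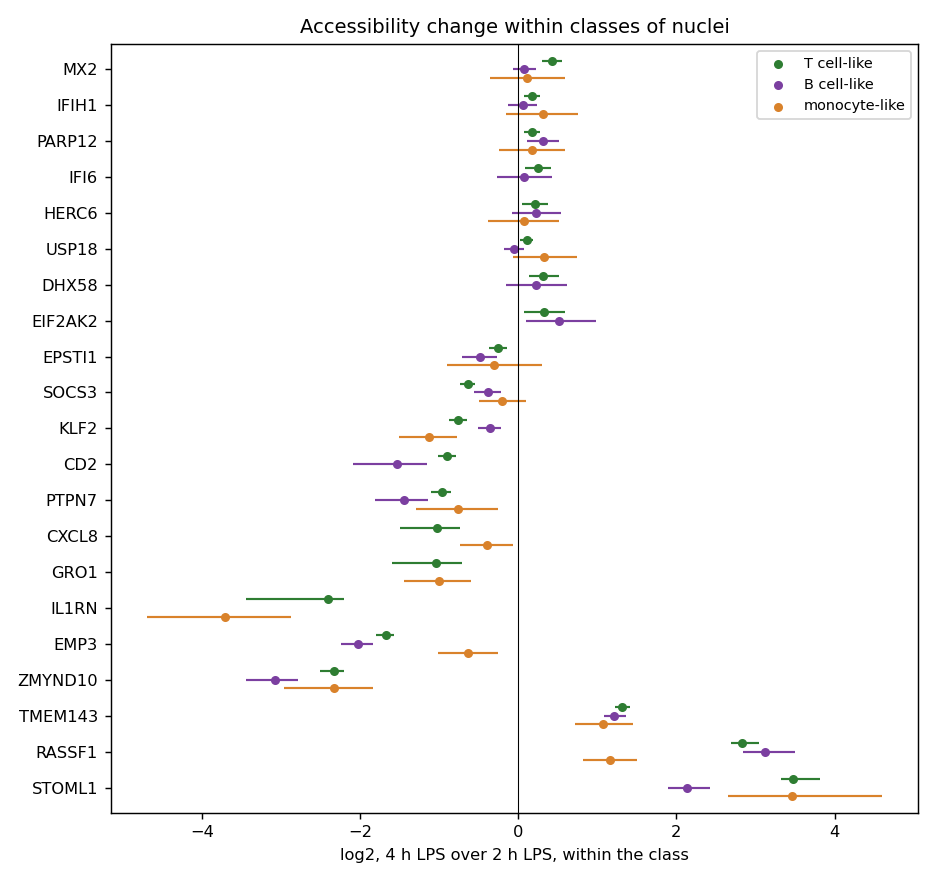
Log2 ratio of (CPM + 1), 4 h over 2 h LPS, of 21 genes within T cell-like, B cell-like and monocyte-like nuclei of the thinned clustering. Points are ratios from the summed counts of a class, horizontal bars are 95% counting intervals of the ratio without a pseudocount, and genes with under 200 counts in a class are left out. Interferon-stimulated genes other than EPSTI1 (log2 -0.26) lie a little to the right of 0 in T cell-like nuclei. RASSF1, TMEM143, ZMYND10 and EMP3 keep their sides in all 3 classes.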

How the data were processed

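The deposited files hold raw counts per gene and barcode, UMIs for scRNA-seq and mostly even whole numbers for scATAC-seq (93.8% and 91.8% of the values above 0 at 2 h and 4 h). The authors used Cell Ranger with ARS-UCD1.2 (bosTau9). The rule that tied cuts to genes is not given in the sources used here. The scATAC-seq tables hold 13687 barcodes, 3422 per library on average, which is the number the study states as single cells. Counts were summed over barcodes and scaled to CPM over the genes listed in both tables, with a pseudocount of 1 CPM, a minimum of 200 counts and a size rule of log2 0.5. Intervals are Clopper-Pearson on pairs of cuts (counts divided by 2), without the pseudocount. TMM factors came from edgeR 4.0.16. Barcodes were clustered by TF-IDF, SVD and Leiden (leidenalg 0.10.2), and clusters were named by a rule set after they were seen. The class with the largest share of its markers raised, at least 3, gave the name. A cluster stayed unnamed where another class with 3 or more raised markers had over 0.8 of that share. Shallow clusters without a marker of the class among their leading genes also stayed unnamed. Doublets were not removed. Symbols came from the RNA tables, which held 95.9% of the shared genes, and 90.0% of the tested genes could be placed among neighbours. Named genes were list members past the rule, the 2 highest and 2 lowest of each list, the 10 largest changes each way, and TLR4, LY96 and CD14, and others serve as context. Members and lists were chosen with earlier results of these data known. The calculation was tested on counts simulated in pairs, as the intervals assume, which checks the arithmetic only. Promoter motifs and gene lengths were not analysed here. Some items are not reported here.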

Additional observations from a re-analysis of the deposited data

Results flagged for a closer look

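Genes listed in only 1 of both tables were outside the comparison. There were 679 such genes at 2 h, with 55955 counts in all, and 113 at 4 h, with 32680 counts, and those with at least 1000 counts are given here. At 2 h only, PHF1 had 4647 counts, TSGA10IP 2325, SH3BGRL3 2204, SIPA1 1839, ISG15 1380, NOXO1 1247 and the unnamed gene ENSBTAG00000048974 1060. At 4 h only, ZFP36 had 7133 counts, CUTA 4185, CDKN2D 3926, SPIB 2580, CYHR1 2010, SART1 1955, CNTROB 1892, the unnamed gene ENSBTAG00000023249 1032 and GFER 1021. Neighbours stood on opposite sides in 3 cases among these, PHF1 and CUTA, TSGA10IP and SART1, and NOXO1 and GFER. SIPA1 lies beside RELA, a subunit of NF-kB, which had 85.6 and 78.6 CPM.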

How the results depend on the processing

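With 1 library a side, no replicate could be left out. No paired analysis was possible because each group had 1 library. Against 109 genes higher and 406 lower, the higher count was 167 with a minimum of 50 counts, 26 with a minimum of 1000, 179 with none, 353 with equal barcode weights, 241 with thinned barcodes, 178 with 0 or 1 per barcode, 508 at log2 0.25 and 29 at log2 1. The lower count was 67 with a minimum of 1000, 221 with 0 or 1 per barcode, 1138 at log2 0.25, 81 at log2 1 and, as an alternative chosen after seeing the data, 110 over genes listed in all 4 tables. TMM scaling gave 110 and 403, and leaving out shared barcode sequences 111 and 404. Also chosen after seeing the data, leaving out the unnamed clusters gave 98 and 572, and leaving out genes beside an opposite neighbour 100 and 393. The interferon-stimulated median stayed positive in 11 of 11 alternatives (0.05 to 0.15), and the T cell marker median negative in 11 of 11 (-0.22 to -0.10). Of 241 list medians under alternatives 29 changed sign. With 0 or 1 per barcode the medians of AP-1 and EGR, feedback brakes and T cell quiescence were -0.048, -0.046 and -0.096. That of genes of other tissues was 0.013 with a minimum of 1000, 0.025 with equal weights, 0.084 with 0 or 1 per barcode, 0.020 without the top 5% of barcodes, 0.014 with class weights and -0.089 without the unnamed clusters. Of 553 values of 38 called genes 527 stayed past the rule and 24 dropped below it. CLEC7A was 0.32 with equal weights and CD8B 0.24 with thinned barcodes, both the other way. With thinned barcodes the 4 h minus 2 h share was 2.07 points for T cell-like, 0.89 for monocyte-like and -2.45 for B cell-like, against -9.36, -1.45 and -6.12. The cause was not tested. The gamma-delta T cell-like and unnamed classes were not formed with thinning. Scaling relative to genes of like length was not run, since no lengths of the files' build were used here.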
